A study of Danio rerio with 40 samples.

Results

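The genes described here encode lysosomal hydrolases, their protective and activator proteins, and proteins of the lysosomal membrane, leaving aside the heparan sulfate enzymes and the cathepsins B, C, D, F, H, K, L and Z. They were chosen by name from a list of 42 zebrafish symbols, and all 42 were found in the count table. Where the table of gene names lacks the paralog letter, every gene under that symbol was taken, which gave 45 genes of the 32057 counted. The 6 symbols gaa, gm2a, npc2, asah1 (listed as asah1a and asah1b), galc (listed as galca and galcb) and mcoln1 (listed as mcoln1a and mcoln1b) stand for 2 genes each, so these genes are given with their Ensembl IDs. Genes under 1 symbol may share reads, and how such reads were counted is not stated, so their separate values are uncertain. The genes lamp1 and acp5 are those listed as lamp1a and acp5a.

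Lysosomes are acidic compartments in which soluble hydrolases take apart sugars, lipids, proteins and nucleic acids, each enzyme removing its own kind of bond, so that loss of one enzyme leaves its substrate undigested. Their membrane is lined by heavily glycosylated proteins and holds the transporters and channels that release the products. In the mammalian brain all cells contain lysosomes, microglia are especially rich in them, and many lysosomal genes are driven together by transcription factors of the MiT/TFE family, TFEB among them. The naglu gene encodes alpha-N-acetylglucosaminidase, an enzyme of heparan sulfate breakdown whose loss in people causes mucopolysaccharidosis type IIIB.

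PolyA RNA was sequenced from 40 whole brains of 6-month-old zebrafish. All fish carried the naglu frameshift allele A603fs. The heterozygous fish were naglu A603fs/+ and served as the unaffected controls, and the homozygous fish were their naglu A603fs/A603fs siblings, a model of the human disease. Each had been injected into the peritoneum 7 days earlier with 10 µg of ferric citrate in 0.85% saline, here called iron, or with the saline alone. This gave 4 groups of 10 libraries, named below by genotype and injection (heterozygous saline, homozygous saline, heterozygous iron and homozygous iron). None of these groups lacks the allele or the injection. Each library carries its own fish number as its title, and the labels do not say that any brains were pooled.

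Library totals ran from 11772789 to 38516546 counts. Of the heterozygous fish, 2 of 10 given saline and 5 of 10 given iron were female, against 7 and 5 of 10 homozygous fish, and every fit had terms for sex and home tank except where stated. The fish number, whose meaning the labels do not give, was above 40 in 6 heterozygous fish given saline and 4 given iron, and in 4 and 6 homozygous ones. Levels below are CPM, the count of a gene relative to its library total scaled by edgeR's TMM factors, and they are compared between samples within a gene, never between genes, because transcript length was not taken into account. The level of naglu mRNA ranged from 2.58 to 5.05 CPM (median 3.42) in heterozygous saline fish and from 2.85 to 6.12 (median 3.62) in heterozygous iron fish. It ranged from 2.73 to 6.09 CPM (median 4.48) in homozygous saline fish and from 2.88 to 6.01 (median 3.53) in homozygous iron fish. The groups overlapped throughout, with a log2 fold change of 0.13 (SE 0.13, edgeR adjusted p = 0.604) for homozygous over heterozygous fish, so the amount of this mRNA does not check the genotype labels.

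Earlier results of these data placed 2 libraries with heterozygous labels, saline 5 and iron 5 of that genotype, among the homozygous ones over other genes, and heterozygous saline 10 also stood apart. They were kept. Results without them are given beside the ones they touch, and since they were picked on the same genotype difference, leaving them out can by itself enlarge it. For the lysosomal genes, heterozygous iron 5 was the highest of the 20 heterozygous libraries in 26 of the 45 genes. The same share over all genes is not given, so this count only describes that library.

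In homozygous brains the mRNA of many of these genes was higher, and that of none was lower beyond the test's threshold. Over both treatments 17 of the 44 genes that passed the filter on low counts rose at an adjusted p under 0.05 in edgeR's quasi-likelihood test, where 2.03% of all 19668 genes tested rose. None fell, where 2.28% of all genes did. No lysosomal gene fell at an unadjusted p under 0.05 either, and DESeq2 and limma voom likewise called 0 lower. The rises of smallest p were, in this order, in hexb, which encodes the beta subunit of beta-hexosaminidase, in the alpha-mannosidase gene man2b2, in ctsa, which encodes the protective protein cathepsin A, and in the membrane protein gene lamp1. The rises had log2 fold changes of 0.15 to 0.59 in 16 of the 17, and of 2.11 in 1 of the npc2 genes. Over all 44 the median log2 fold change was 0.17 and 37 were positive, while over all genes tested it was -0.0015 and 49.4% were positive.

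By role, the test called 5 of 14 glycosidases and sulfatases, 3 of 3 protective and activator proteins, 4 of 7 lipid hydrolases, 0 of 4 in the group of a thioesterase, a peptidase and phosphatases, 2 of 6 structural membrane proteins and 3 of 10 transporters, channels and sterol carriers. The 27 genes that were not called comprised 20 with positive and 7 with negative values, and 9 of them, all positive, had an unadjusted p under 0.05. Of all 19668 genes tested, 3881 had an unadjusted p under 0.05 in this comparison, in either direction. The remaining gene, gm2a (ENSDARG00000107431), did not pass the filter: its level was at most 0.0816 CPM in any library.

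**Figure D1:**
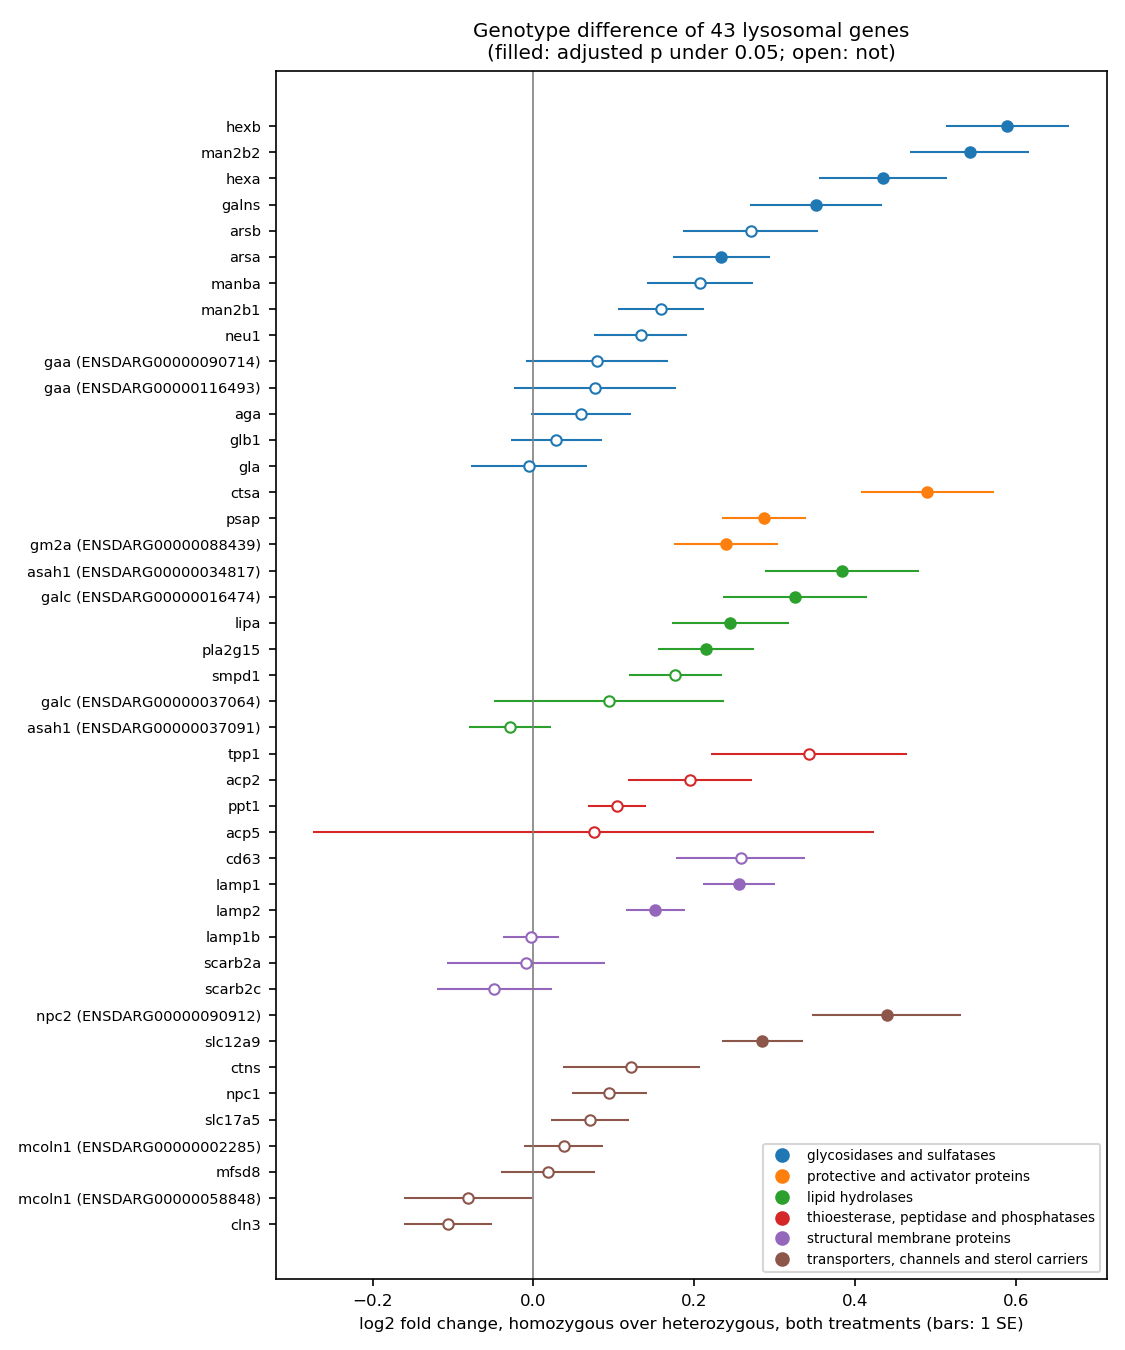
Log2 fold change of homozygous over heterozygous brains, averaged over both treatments (x axis), for each lysosomal gene tested (rows, coloured by role), with bars of 1 SE and filled points for an adjusted p under 0.05. The filled points lie between 0.15 and 0.59, all to the right of 0; npc2 (ENSDARG00000096979), at 2.11, lies beyond the axis and is not drawn.

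Beta-hexosaminidase cuts terminal N-acetylhexosamines, among them those of the ganglioside GM2. The beta subunit gene hexb, which is also a marker of microglia in mice, ranged from 22.1 to 37.1 (median 27.9) CPM in heterozygous saline fish and from 21.7 to 49.4 (median 27.3) in heterozygous iron fish. In homozygous fish it ranged from 40.0 to 48.1 (median 45.5) after saline and from 35.4 to 48.7 (median 45.1) after iron. The 20 homozygous libraries all lay above the heterozygous median, but the groups overlapped through 2 libraries, heterozygous saline 5 at 37.1 and heterozygous iron 5 at 49.4 CPM, since the other 18 heterozygous libraries reached only 33.6 and the lowest homozygous one stood at 35.4. The log2 fold change was 0.59 (adjusted p = 1.26e-05, SE 0.08), which is 1.5-fold. The alpha subunit gene hexa ranged from 5.22 to 8.24 (median 5.65) CPM in heterozygous saline and from 5.16 to 9.02 (median 6.71) in heterozygous iron fish. Its range was 7.57 to 12.1 (median 8.48) in homozygous saline and 6.16 to 10.0 (median 8.26) in homozygous iron fish. Here the genotypes overlapped, with 19 of 20 homozygous libraries above the heterozygous median, and the log2 fold change was 0.43 (adjusted p = 0.000771, SE 0.08).

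The alpha-mannosidase gene man2b2, whose product trims mannose from glycoprotein sugars, showed a similar separation. Its level ranged from 15.4 to 24.4 (median 18.9) CPM in heterozygous saline, 16.03 to 33.3 (median 18.4) in heterozygous iron, 26.0 to 35.2 (median 29.9) in homozygous saline and 24.5 to 31.8 (median 27.5) in homozygous iron fish. Apart from heterozygous iron 5 at 33.3 and heterozygous saline 5 at 24.4 CPM, no heterozygous library exceeded 21.4, and the lowest homozygous library stood at 24.5. The log2 fold change was 0.54 (adjusted p = 2.21e-05, SE 0.07). Of the 17 called genes, hexb and man2b2 were the 2 whose homozygous libraries all lay above the other 18 heterozygous ones, and 0 of the 17 were free of overlap when all 20 heterozygous libraries were counted. The 17 were called on this same difference, and the 2 libraries set aside were picked on it. The share of all genes without overlap is not given, so these counts are descriptions.

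Both of the called sulfatases act on sulfated glycans or glycolipids other than heparan sulfate. The keratan and chondroitin 6-sulfatase gene galns ranged from 7.00 to 12.5 (median 10.3) CPM in heterozygous saline, 8.38 to 14.5 (median 10.1) in heterozygous iron, 11.9 to 15.3 (median 14.1) in homozygous saline and 9.68 to 17.6 (median 12.9) in homozygous iron fish. Its groups overlapped, and it rose with a log2 fold change of 0.35 (adjusted p = 0.00847, SE 0.08). The cerebroside sulfatase gene arsa, whose substrate sulfatide is a myelin lipid, ranged from 11.6 to 15.1 (median 13.0) CPM, 12.0 to 17.8 (median 14.4), 14.2 to 19.54 (median 16.7) and 13.2 to 20.9 (median 16.2) in the same order of groups. The overlap was wider here, and the rise smaller at 0.23 (adjusted p = 0.02, SE 0.06). The 9 glycosidase and sulfatase genes below the threshold had log2 fold changes from -0.01 in gla, which encodes alpha-galactosidase A, to 0.27 in arsb, the dermatan and chondroitin 4-sulfatase gene (SE 0.08, adjusted p = 0.0576). The mannosidase genes manba (0.21, SE 0.07) and man2b1 (0.16, SE 0.05) and the sialidase gene neu1 (0.13, SE 0.06) did not pass either. Nor did the beta-galactosidase gene glb1 (0.03, SE 0.06), the aspartylglucosaminidase gene aga (0.06, SE 0.06), or the acid alpha-glucosidase genes gaa (ENSDARG00000090714) and gaa (ENSDARG00000116493), both at 0.08 with SE of 0.09 and 0.10. For glb1 the 95% interval of -0.08 to 0.14 leaves out a rise as large as that of hexb.

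All 3 tested genes for protective and activator proteins rose. Cathepsin A, encoded by ctsa, holds beta-galactosidase and neuraminidase 1 in a stable complex. Its gene ranged from 14.1 to 21.3 (median 18.2) CPM in heterozygous saline, 16.7 to 34.1 (median 19.1) in heterozygous iron, 23.3 to 40.9 (median 26.1) in homozygous saline and 20.6 to 33.7 (median 27.8) in homozygous iron fish. All homozygous saline libraries lay above all heterozygous saline libraries, while heterozygous iron 5 overlapped the homozygous range. Apart from heterozygous saline 5 and heterozygous iron 5, the other 18 heterozygous libraries reached 22.9 CPM, above the lowest homozygous one at 20.6. The log2 fold change was 0.49 (adjusted p = 0.000339, SE 0.08). The genes for its partner enzymes, glb1 and neu1, were not called, although the difference between these genes was not tested. Prosaposin, encoded by psap, is cut into the saposins that present sphingolipids to their hydrolases. Its gene ranged from 500.7 to 778 (median 626) CPM in heterozygous saline and 516 to 831 (median 647) in heterozygous iron fish, against 729.5 to 805 (median 783) in homozygous saline and 713 to 908 (median 771) in homozygous iron fish. Each of the 20 homozygous libraries lay above the heterozygous median, with a log2 fold change of 0.29 (adjusted p = 0.000733, SE 0.05). The GM2 activator gene gm2a (ENSDARG00000088439), whose product lifts GM2 to beta-hexosaminidase, ranged from 17.0 to 25.9 (median 21.4) CPM, 16.6 to 28.1 (median 22.6), 21.8 to 36.1 (median 26.0) and 19.6 to 27.99 (median 24.7) in the order of groups used for arsa. Its groups overlapped broadly, and the log2 fold change was 0.24 (adjusted p = 0.0263, SE 0.06). Both subunit genes of beta-hexosaminidase and the activator gene were therefore among the 17.

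**Figure D2:**
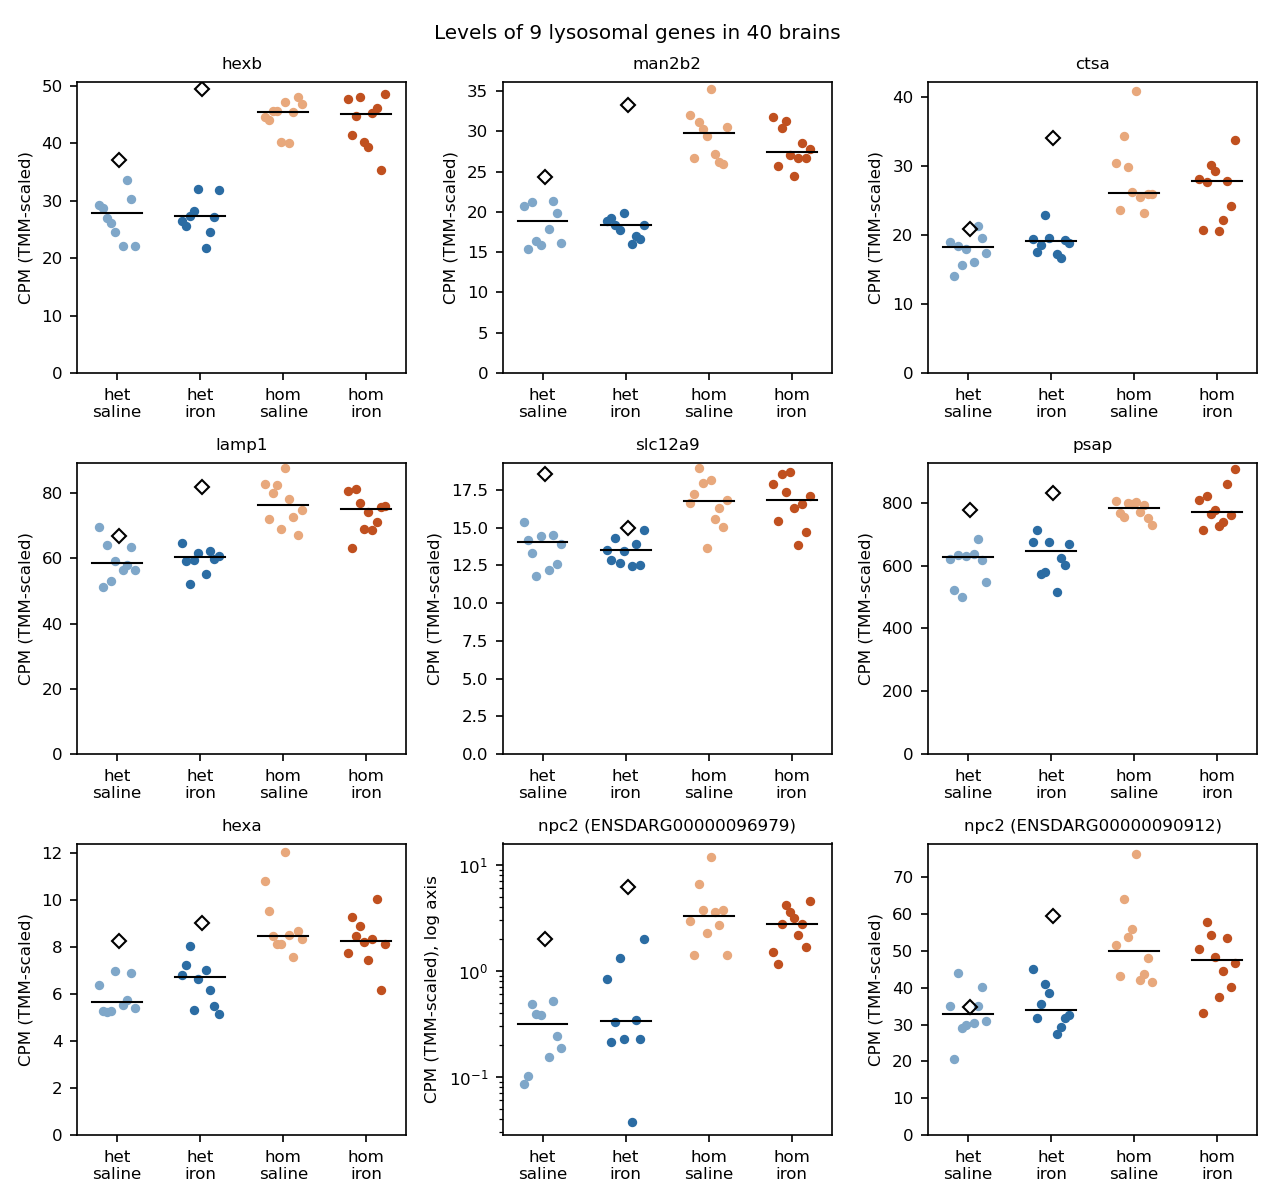
Level in CPM (y axis, from 0; log axis for npc2 ENSDARG00000096979) of the 9 lysosomal genes of smallest p in each of the 40 brains by group (x axis), each point 1 library, with a line at the group median and open diamonds for heterozygous saline 5 and heterozygous iron 5. For hexb the diamonds stand at 37.1 and 49.4 CPM, above the other heterozygous libraries, and the homozygous libraries lie from 35.4 to 48.7.

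Among the lipid hydrolases, the acid ceramidase gene asah1 (ENSDARG00000034817) ranged from 31.4 to 60.2 (median 40.7) CPM in heterozygous saline, 28.98 to 73.3 (median 46.4) in heterozygous iron, 48.1 to 84.9 (median 62.6) in homozygous saline and 45.4 to 68.1 (median 58.1) in homozygous iron fish. The ranges overlapped, and the gene rose by 0.38 (adjusted p = 0.0158, SE 0.10). Its relative asah1 (ENSDARG00000037091) had a log2 fold change of -0.03 (SE 0.05), with a 95% interval of -0.13 to 0.07. The galactosylceramidase gene galc (ENSDARG00000016474), whose substrate galactosylceramide is the main glycolipid of myelin, ranged from 7.17 to 13.7 (median 10.3) CPM, 8.45 to 14.5 (median 11.1), 9.93 to 16.1 (median 14.1) and 9.53 to 17.9 (median 13.4) in the same order of groups. It too overlapped between genotypes, with a log2 fold change of 0.33 (adjusted p = 0.0283, SE 0.09), while galc (ENSDARG00000037064) had a value of 0.09 (SE 0.14). These pairs differed in whether they passed the threshold, and the difference within a pair was not tested.

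The lysosomal phospholipase A2 gene pla2g15 ranged from 16.1 to 27.4 (median 22.1) CPM in heterozygous saline, 18.9 to 27.6 (median 22.5) in heterozygous iron, 22.5 to 31.6 (median 27.3) in homozygous saline and 21.6 to 30.3 (median 26.4) in homozygous iron fish. The genotypes overlapped over much of their range, and the log2 fold change was 0.21 (adjusted p = 0.0316, SE 0.06). The acid lipase gene lipa, whose product frees cholesterol from its esters, had medians of 15.0 CPM after saline and 17.5 after iron in heterozygous fish, and of 21.4 and 18.3 in homozygous fish. It had the largest adjusted p of the 17, at 0.24 (adjusted p = 0.0442, SE 0.07), and lost the threshold when all genes with a count were tested. The acid sphingomyelinase gene smpd1 was just outside, at 0.18 (SE 0.06, adjusted p = 0.0735).

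None of the 4 genes for other soluble enzymes was called by edgeR, DESeq2 or limma voom. In edgeR 3 of them had an unadjusted p under 0.05, beside 3881 of all 19668 genes. The gene of smallest p here was ppt1, which encodes the palmitoyl-protein thioesterase lost in infantile neuronal ceroid lipofuscinosis. It ranged from 74.7 to 88.7 (median 77.3) CPM in heterozygous saline, 72.3 to 100.3 (median 82.1) in heterozygous iron, 80.2 to 99.1 (median 84.9) in homozygous saline and 78.8 to 93.9 (median 90.4) in homozygous iron fish. The groups overlapped almost fully, with a log2 fold change of 0.10 (adjusted p = 0.0958, SE 0.04). The tripeptidyl peptidase gene tpp1 had a larger value of 0.34 (SE 0.12, adjusted p = 0.101) with a wider spread, and the acid phosphatase gene acp2 had 0.19 (SE 0.08, adjusted p = 0.144). The tartrate-resistant phosphatase gene acp5, known from osteoclasts and macrophages, was barely detected, with at most 24 counts in a library, and is described with the iron comparisons.

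Of the structural membrane proteins, lamp1 and lamp2 rose. The lamp1 gene, for one of the most abundant glycoproteins of the lysosomal membrane, ranged from 51.3 to 69.6 (median 58.6) CPM in heterozygous saline, 52.1 to 81.8 (median 60.3) in heterozygous iron, 67.3 to 87.5 (median 76.5) in homozygous saline and 63.1 to 81.3 (median 75.0) in homozygous iron fish. Its highest heterozygous library, heterozygous iron 5, lay inside the homozygous range. Without heterozygous saline 5 and heterozygous iron 5, the other 18 heterozygous libraries still reached 69.6 CPM, above the lowest homozygous one at 63.1. The log2 fold change was 0.26 (adjusted p = 0.000431, SE 0.04). The gene lamp2, whose product also serves chaperone-mediated autophagy in mammals, ranged from 51.7 to 60.0 (median 54.2) CPM, 49.1 to 62.5 (median 53.9), 54.2 to 78.6 (median 60.6) and 55.9 to 68.3 (median 60.2) in the same order. The rise was the smallest of the 17, at 0.15 (adjusted p = 0.0105, SE 0.04), against a spread within groups (SD of log2 CPM) of only 0.11. The second lamp1 paralog, lamp1b, had a log2 fold change of -0.0031 (SE 0.03), with a 95% interval of -0.07 to 0.06. The tetraspanin gene cd63 was just outside the threshold, at 0.26 (SE 0.08, adjusted p = 0.0576), and the genes scarb2a (-0.01, SE 0.10) and scarb2c (-0.05, SE 0.07), related to the receptor that carries beta-glucocerebrosidase to lysosomes, had values close to 0.

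The NPC2 protein binds cholesterol inside the lysosome and hands it to the membrane protein NPC1. The gene npc2 (ENSDARG00000090912) ranged from 20.5 to 43.9 (median 32.9) CPM in heterozygous saline, 27.6 to 59.5 (median 34.1) in heterozygous iron, 41.6 to 76.4 (median 49.9) in homozygous saline and 33.1 to 57.8 (median 47.6) in homozygous iron fish. Both homozygous medians lay above every heterozygous library but heterozygous iron 5, and the log2 fold change was 0.44 (adjusted p = 0.00368, SE 0.09). The second gene, npc2 (ENSDARG00000096979), was present at low levels, 0.0851 to 2.00 (median 0.312) CPM in heterozygous saline and 0.0375 to 6.23 (median 0.334) in heterozygous iron fish. In homozygous fish it ranged from 1.41 to 12.0 (median 3.28) CPM after saline and from 1.17 to 4.54 (median 2.75) after iron. Its log2 fold change was the largest of all the lysosomal genes, at 2.11 (adjusted p = 0.00121, SE 0.40), which is 4.3-fold, and its spread within groups was the largest too (SD of log2 CPM 1.15). Heterozygous iron 5, at 6.23 CPM, lay among the higher homozygous libraries. The value moved to 3.16 without heterozygous saline 5 and heterozygous iron 5, and to 1.59 with a term for the microglia marker level.

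The chloride cotransporter family gene slc12a9 ranged from 11.8 to 18.6 (median 14.0) CPM in heterozygous saline, 12.5 to 15.0 (median 13.5) in heterozygous iron, 13.6 to 18.9 (median 16.7) in homozygous saline and 13.9 to 18.7 (median 16.9) in homozygous iron fish. Here the highest heterozygous library was heterozygous saline 5 and not heterozygous iron 5, and the log2 fold change was 0.28 (adjusted p = 0.000477, SE 0.05). The other transporters and channels were not called. Values were 0.09 (SE 0.05) in the cholesterol exporter gene npc1, 0.12 (SE 0.09) in the cystine transporter gene ctns and 0.07 (SE 0.05) in the sialic acid transporter gene slc17a5. They were 0.02 (SE 0.06) in mfsd8 and -0.11 (SE 0.05) in cln3, both genes of neuronal ceroid lipofuscinosis. The calcium channel genes mcoln1 (ENSDARG00000002285) and mcoln1 (ENSDARG00000058848) had values of 0.04 (SE 0.05) and -0.08 (SE 0.08). So npc1 and npc2, which act on the same cholesterol, differed in their calls, and that difference was not tested.

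Across libraries, the 17 called genes were high together in single fish. In homozygous saline fish, 15 to 17 of them lay above their heterozygous median in each library, and 10 to 17 did in homozygous iron fish. In heterozygous fish the number ran from 2 to 16 after saline and from 1 to 17 after iron. The library with all 17 among the heterozygous ones was heterozygous iron 5, and the one with 16 was heterozygous saline 5. The lowest heterozygous libraries were heterozygous iron 6 with 1 of 17, and heterozygous saline 3, 6 and 10 with 2 each. Homozygous iron 10 was the lowest homozygous library, with 10 of 17. These counts describe genes that were called on this same difference, and no test was made of them.

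**Figure D3:**
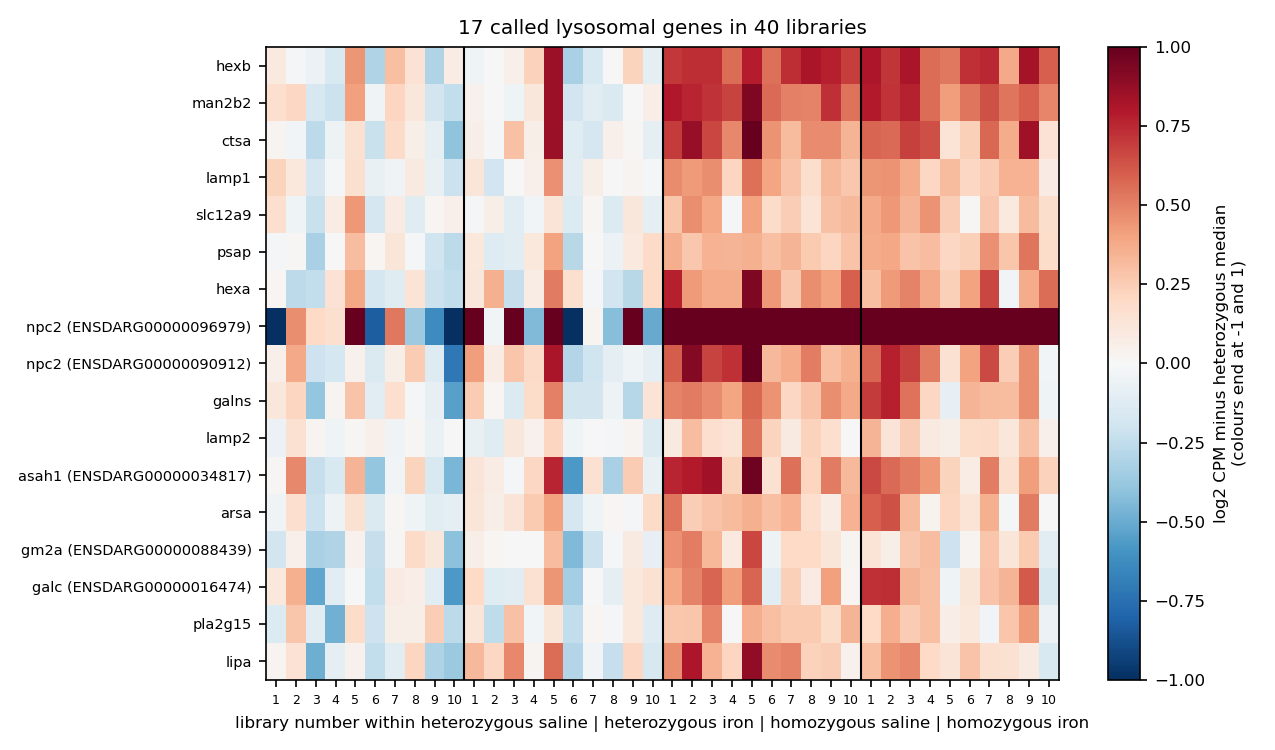
Log2 CPM of the 17 called lysosomal genes (rows) in each of the 40 libraries (columns, by group and library number), as the difference from the gene's heterozygous median, with colours ending at -1 and 1. Among the heterozygous columns, iron 5 and saline 5 had the most genes above the heterozygous median, 17 and 16. The median difference over the 17 genes was 0.50 in iron 5. It was only 0.19 in saline 5, close to the 0.15 of heterozygous saline 2. Medians of these library values were 0.34 in homozygous saline and 0.33 in homozygous iron fish. The npc2 (ENSDARG00000096979) row runs past the colour range.

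The genotype difference was then taken apart by treatment. After saline 7 of the 44 genes rose, where 0.569% of all genes rose: hexa, hexb, man2b2, ctsa, psap, lamp1 and npc2 (ENSDARG00000090912). After iron 3 rose, where 0.0661% of all genes did: hexb, man2b2 and slc12a9. For hexb the log2 fold change in saline fish was 0.61 (edgeR adjusted p = 0.00502, SE 0.11) and that in iron fish 0.57 (adjusted p = 0.0174, SE 0.11). Those of man2b2 were 0.57 (adjusted p = 0.00517, SE 0.11) and 0.51 (adjusted p = 0.0246, SE 0.11). For hexa they were 0.58 (SE 0.11) and 0.29 (SE 0.11), and for ctsa 0.57 (SE 0.12) and 0.41 (SE 0.12). The values for slc12a9 were 0.24 (SE 0.07) and 0.33 (SE 0.07). All 17 genes called over both treatments were positive in each, with log2 fold changes of 0.14 to 2.37 after saline and 0.10 to 1.84 after iron. The 17 were called on the mean of these values, so their shared sign was largely fixed in advance. The saline and iron comparisons share no library, but they share the sex and tank terms of 1 fit. The median over the 44 genes was 0.21 after saline and 0.14 after iron, beside -0.00061 and 0.0017 over all genes. That saline calls exceed iron calls does not by itself show a difference between treatments. The interaction test called 0 of the 44 genes, nor any of all genes (0%), but a test without calls cannot show that the treatments were alike. The median interaction was -0.06 over the 44 genes, 13 of them positive, beside -0.0022 over all genes. Under the alternatives this median ran from -0.10 without sex and tank terms to 0.10 with male libraries alone, which hold only 3 homozygous saline fish. It was -0.10 without heterozygous saline 5, -0.01 without heterozygous iron 5 and -0.05 with a term for fish number. The main fit had no such term, although the groups held unequal numbers of fish above 40. Whether the 44 genes as a set differed between treatments was not tested.

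**Figure D4:**
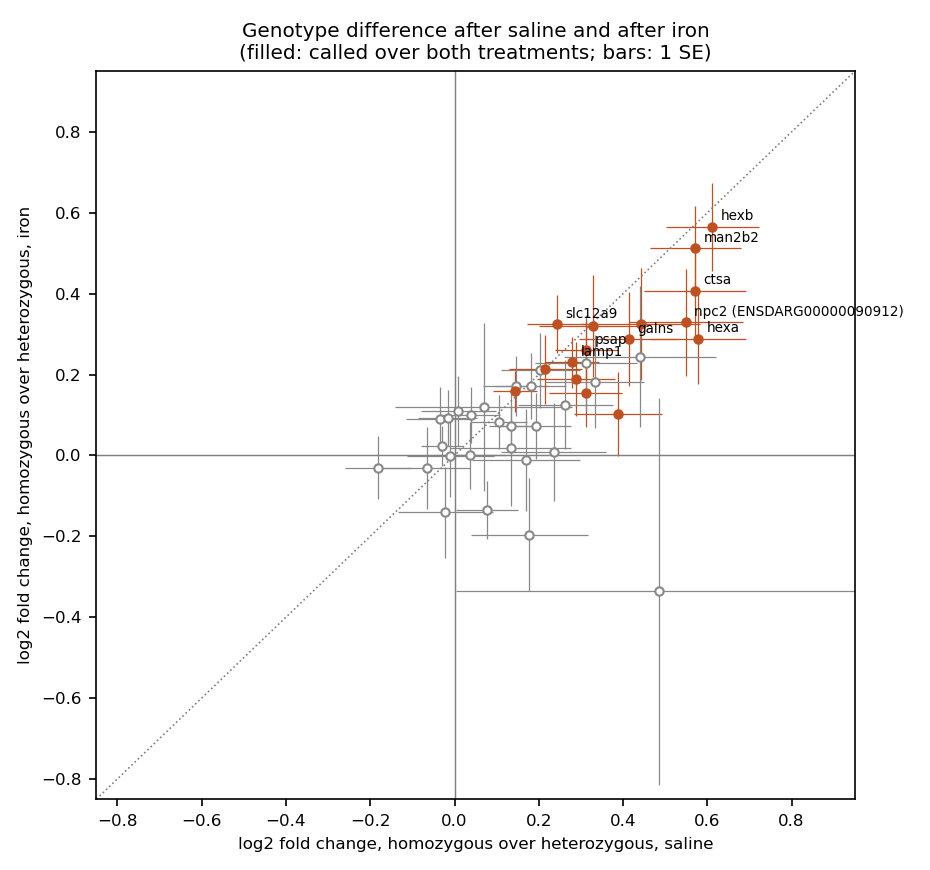
Log2 fold change of homozygous over heterozygous brains after saline (x axis) and after iron (y axis) for each lysosomal gene, with bars of 1 SE, filled points for genes called over both treatments and the dotted line at equal values. The filled points all lie above and to the right of 0; npc2 (ENSDARG00000096979), at 2.37 and 1.84, lies beyond the axes and is not drawn.

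Ferric citrate itself changed none of these genes beyond the threshold. In heterozygous fish edgeR called 0 of 44 for iron over saline, beside 0% of all genes, and in homozygous fish also 0 of 44, beside 0%. DESeq2 and limma voom called 0 as well. At an unadjusted p under 0.05 there was 1 gene in heterozygous fish, beside 662 of all 19668 genes. It was asah1 (ENSDARG00000037091), with a log2 fold change of 0.17 (SE 0.07). In homozygous fish there were 0, beside 287 of all genes. The interaction had 1, again asah1 (ENSDARG00000037091), with -0.21 (SE 0.10), beside 498 of all 19668 genes. The median over the 44 genes was 0.06 in heterozygous and -0.02 in homozygous fish, beside 0.0027 and 0.00083 over all genes. Positive values numbered 32 and 18 of 44, where 51.1% and 50.4% of all genes were positive. With a term for fish number the medians over the 44 genes were 0.04 and -0.007. Whether the 44 genes as a set changed with iron was not tested. For the 17 genes with a genotype difference, iron over saline ran from -0.05 to 0.36 in heterozygous fish and from -0.18 to 0.10 in homozygous fish. For hexb the interaction was -0.05 with a 95% interval of -0.35 to 0.26, which is wide enough to hide a change of the size that many of these genes showed between genotypes.

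The largest values for iron came from the thinly counted genes. In heterozygous fish it was 0.36 (SE 0.67) in npc2 (ENSDARG00000096979). In homozygous fish it was -0.65 (SE 0.48) in acp5, whose level ranged from 0 to 0.710 (median 0.200) CPM in heterozygous saline, 0.130 to 0.587 (median 0.219) in heterozygous iron, 0.108 to 0.576 (median 0.325) in homozygous saline and 0.0605 to 0.695 (median 0.193) in homozygous iron fish. These ranges lie on top of each other, and the gene was not called in any comparison.

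**Figure D5:**
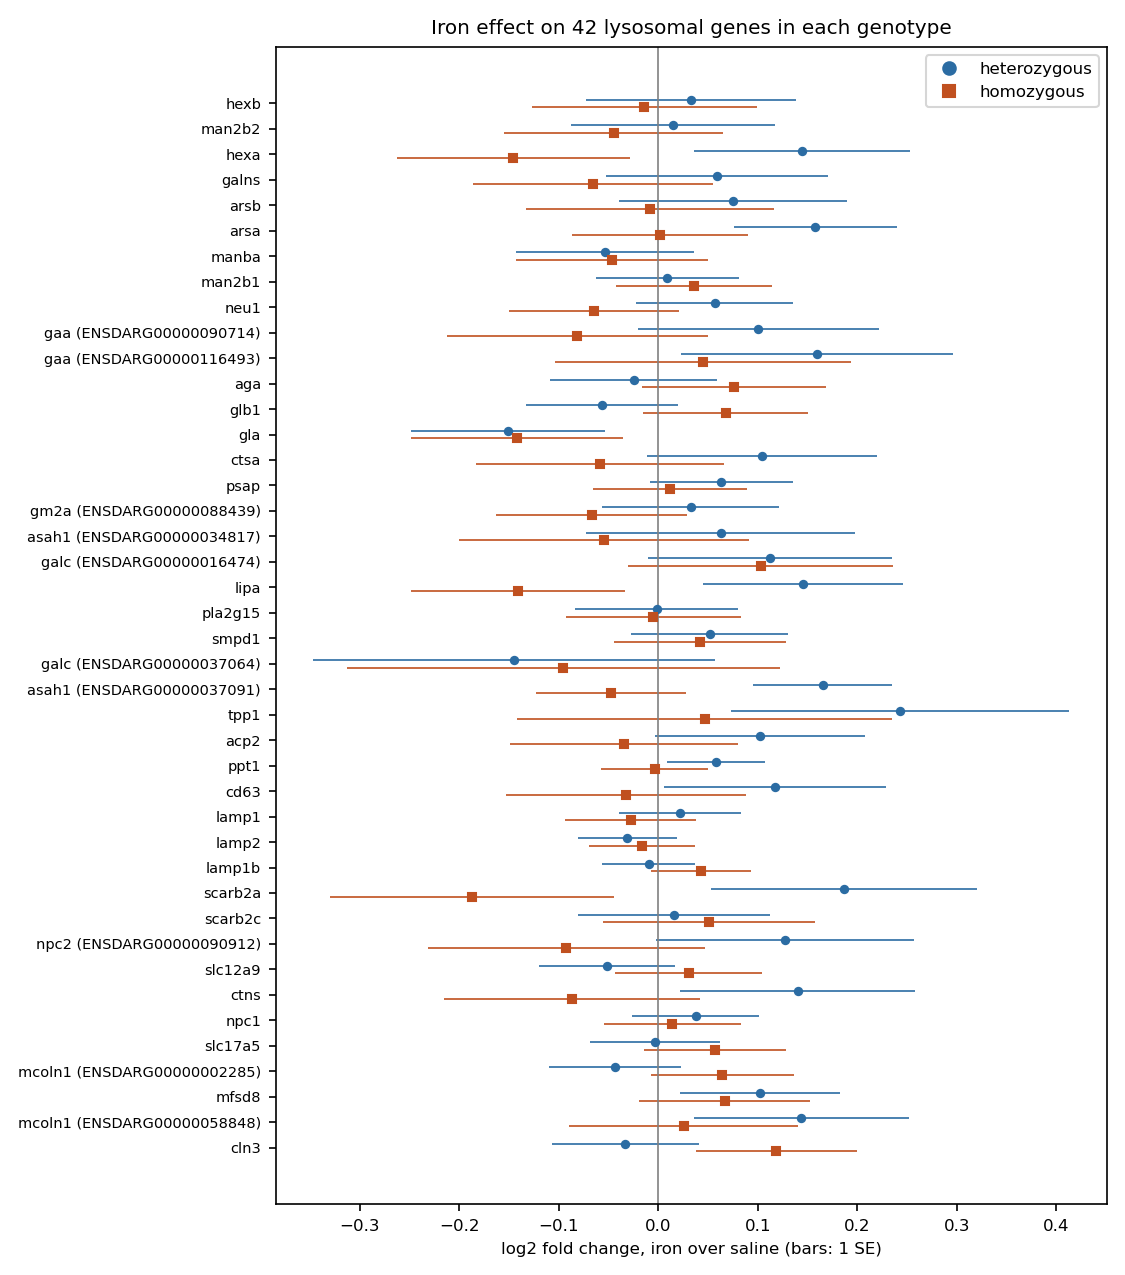
Log2 fold change of iron over saline (x axis) in heterozygous (circles) and homozygous (squares) brains for each lysosomal gene tested except acp5 and npc2 (ENSDARG00000096979), with bars of 1 SE. Of the 44 genes tested, those left out included, 32 had positive values in heterozygous and 18 in homozygous brains, and 0 passed the threshold.

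Sex was uneven between the groups, so the genotype difference was also looked at within each sex. The homozygous median was above the heterozygous one for 17 of 17 called genes in males (13 heterozygous, 8 homozygous) and for 17 of 17 in females (7 and 12). The 17 were called on this same difference in the same libraries. Such counts were therefore largely fixed in advance and are descriptions. For hexb the medians were 27.0 and 44.4 CPM in males and 30.2 and 45.6 in females. With male libraries alone edgeR called 6 of the 44 genes, where 0.605% of all genes were called: hexa, hexb, man2b2, ctsa, lamp1 and npc2 (ENSDARG00000096979). Between the sexes themselves, lipa rose in females by 0.29 (SE 0.07, edgeR adjusted p = 0.0265), 1 of 44 genes, where 1.71% of all genes were higher in females. Its medians were 14.4 CPM in male and 18.7 in female heterozygous fish, and 18.3 and 21.4 in homozygous fish, in the same direction within both genotypes. The call was lost without heterozygous iron 5. The largest value for sex was 1.09 (SE 0.43, adjusted p = 0.169) in npc2 (ENSDARG00000096979), which did not pass.

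More genes were called for fish number than for genotype, with 10.8% of genes higher and 10.6% lower above 40 than up to 40. Of the lysosomal genes, 0 were higher and 4 lower. They were npc2 (ENSDARG00000090912) at -0.29 (SE 0.08, edgeR adjusted p = 0.00573), lipa at -0.22 (SE 0.06, adjusted p = 0.00994), gaa (ENSDARG00000090714) at -0.21 (SE 0.08, adjusted p = 0.0448) and asah1 (ENSDARG00000037091) at -0.13 (SE 0.04, adjusted p = 0.0343). The count of lower genes, 4 of 44, is near the background of lower genes. The median log2 fold change over the 44 was -0.08 and 9 were positive. Over all genes tested it was -0.0088 and 47.9% were positive. Whether the 44 genes as a set differed by fish number was not tested. Each genotype had 10 fish on either side of 40, and the homozygous median exceeded the heterozygous one for 17 of 17 called genes on both sides. As with sex, these genes were called on that difference in the same libraries, so the count is a description. With hexb as the example, medians were 27.2 and 45.2 CPM up to 40 and 27.98 and 45.4 above 40. Fitted over both treatments to 20 libraries at a time, edgeR called 0 of the 43 lysosomal genes tested up to 40 and 0 of the 44 tested above 40, and 1 of all genes on each side. The median log2 fold changes over these 43 and 44 genes were 0.18 and 0.16. A term for fish number in the full fit left 18 called, among them all 17. The share of all genes called in either direction rose too, from 4.31% to 5.67%. Within each of the 5 home tanks, the homozygous median lay above the heterozygous one for every one of the 17, again a description of genes called on that difference.

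Markers of other cells moved with genotype in the same brains. In bulk tissue, more RNA of a gene per cell cannot be told apart from more cells that express it. Of 30 tested microglia and macrophage genes 3 rose and 0 fell over both treatments, with a median log2 fold change of 0.33, which was 0.56 after saline and 0.07 after iron. The summed level of the 35 genes of that list ranged from 552 to 1719 CPM (median 1140.0) in heterozygous saline, 949 to 1635 (median 1266) in heterozygous iron, 1191 to 2443 (median 1313) in homozygous saline and 897 to 1753 (median 1372) in homozygous iron fish. None of the 35 was at 0 in all libraries. With this level as a term of the fit, 11 of the 17 lysosomal genes were still called: hexa, hexb, man2b2, galns, ctsa, psap, lamp1, lamp2, slc12a9 and both npc2 genes. The share of all genes called in either direction fell too, from 4.31% to 3.29%. The calls of arsa, gm2a (ENSDARG00000088439), asah1 (ENSDARG00000034817), galc (ENSDARG00000016474), lipa and pla2g15 were lost. The value of hexb changed from 0.59 to 0.55, and that of gm2a (ENSDARG00000088439) from 0.24 to 0.13. The term was the log2 of the summed level, in which the most abundant genes weigh most. How much of the marker difference it carries was not tested.

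Of 18 genes of oligodendrocytes and their myelin, 16 fell past the threshold and 0 rose, with a median log2 fold change of -0.49. Their summed level ranged from 12240 to 34320 CPM (median 24130) in heterozygous saline, 14240 to 26990 (median 21300.0) in heterozygous iron, 10690 to 22110 (median 15110) in homozygous saline and 9466 to 20580 (median 13980) in homozygous iron fish, and none of the genes was at 0 in all libraries. The part of these cells in the lysosomal values was not tested. Of the other lists, 0 of 25 neuron, 0 of 17 astroglia, 0 of 22 endothelium and mural, 0 of 7 erythrocyte and 0 of 13 photoreceptor, lens and pineal genes were called by edgeR. At an unadjusted p under 0.05 there were 2, 4, 0, 0 and 2, beside 3881 of all 19668 genes. All 13 photoreceptor, lens and pineal genes were positive, with a median log2 fold change of 1.35. The summed level of the 24 genes of that list had group medians of 7.55 to 9.81 CPM. In the highest library of each group it reached 131 to 252 CPM, so single libraries differed widely. Of 10 pigment cell genes 2 rose.

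The genes around these in the lysosomal system were counted in the same way. Of 14 cathepsin and legumain genes 9 rose over both treatments, with a median log2 fold change of 0.57. The aspartic protease gene ctsd went from a heterozygous median of 155 CPM to a homozygous one of 202, a log2 fold change of 0.35 (SE 0.05, edgeR adjusted p = 3.89e-05). The values were 0.78 (SE 0.13) for the carboxypeptidase gene ctsz and 0.32 (SE 0.05) for the asparaginyl endopeptidase gene lgmn. Of 11 heparan sulfate breakdown genes 3 rose, gnsb by 0.90 (SE 0.14), the heparanase gene hpse by 0.46 (SE 0.09) and the sulfatase gene gns by 0.11 (SE 0.03). Of 2 granulin genes grna rose, by 0.94 (SE 0.20), while grnb had 0.03 (SE 0.05).

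Fewer genes were called in other parts of the system. Of 20 V-ATPase genes, for the pump that acidifies lysosomes, 1 rose, atp6v0e1 by 0.50 (SE 0.12), and the median was 0.04. Positive values were found in 17 of the 20, where 49.4% of all genes were positive, and 5 had an unadjusted p under 0.05. Of 14 genes for mannose 6-phosphate tagging and sorting, which bring hydrolases to lysosomes, 0 were called, with a median of 0.02 and 3 at an unadjusted p under 0.05. Of 5 MiT/TFE factor genes 0 were called, with a median of -0.17 and 2 at an unadjusted p under 0.05, which were tfeb at -0.31 (SE 0.11, adjusted p = 0.0852) and tfe3 (ENSDARG00000098903) at -0.18 (SE 0.07, adjusted p = 0.164). Of all 19668 genes tested, 3881 had an unadjusted p under 0.05 in this comparison. The lists were chosen with results of these data known, so their counts are descriptions.

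Without heterozygous saline 5 and heterozygous iron 5, 25 of the 44 lysosomal genes were called, the same 17 together with acp2, arsb, cd63, man2b1, manba, ppt1, smpd1 and tpp1. The share of all genes called in either direction rose too, from 4.31% to 8.31%. After saline 14 lysosomal genes were called, beside 2.98% of all genes, and after iron 9, beside 0.995%. Leaving out heterozygous iron 5 alone gave 12 after saline, 8 after iron and 24 over both, beside 1.91%, 0.756% and 7.21% of all genes. Leaving out heterozygous saline 5 alone gave 12, 4 and 22, beside 2.28%, 0.38% and 5.74%.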

How the data were processed

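PolyA RNA of 40 whole brains was measured, 10 in each of 4 groups of genotype and treatment taken from the labels. The authors deposited unnormalized counts for each Ensembl gene. The submitters' processing notes name featureCounts, UMI-tools, STAR and fastp with the build GRCz11. The sources used here give no versions, settings or strand handling, so where genes overlap or lie antisense to each other their reads cannot be separated. A name table matched 28988 of 32057 genes (90.4%).

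The test was that of edgeR 4.0.16, run in R 4.3.3. The filter filterByExpr on the 4 groups left 19668 genes, and libraries were scaled by TMM. A robust quasi-likelihood model with group means, sex and home tank (9 coefficients, 31 residual degrees of freedom) was fitted to all 40 libraries. Contrasts gave 8 comparisons, that for fish number with a further term, and Benjamini-Hochberg adjustment covered every tested gene, a call being an adjusted p under 0.05. Levels are CPM on TMM-scaled totals, and log2 CPM uses a prior count of 2. Library totals of 11772789 to 38516546 counts limit precision for genes with few counts, and p-values measure the spread between these fish.

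The genes, the lists and the tests were chosen with earlier results of these data known, and the marker lists leave out the lysosomal genes described here. Values by group are given for up to 16 called genes by smallest p, for the gene of smallest p in each of 6 role groups, and for the largest value for iron in each genotype and for sex; other genes are given by value or range. Other lists are named by up to 3 genes of smallest p. The 17 alternatives covered other size factors and filters, DESeq2 1.42.0, limma voom 3.58.1, changed covariates (with 1 surrogate variable of sva 3.50.0 among them), subsets of the libraries and leaving out single libraries. Applying them to the fish number comparison was chosen after seeing the data. The edgeR test of genotype over both treatments was checked on simulated data in which sex, tank and iron had no effect. The other comparisons were not part of that simulation. Symbols were placed by RefSeq's GRCz12tu table for 40 of the 42 listed symbols, 0 of them on chromosome 24, which holds naglu; sequences were not used here.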

Additional observations from a re-analysis of the deposited data

Results flagged for a closer look

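In each group of 10 libraries, the highest and the lowest log2 CPM of the 18 lysosomal genes given by group were compared with the nearest other library. Of 72 such groups 6 had a library whose gap to its neighbour exceeded 0.466 of the whole range, Dixon's limit for 10 samples, which chance passes in about 1 in 20 groups. The same libraries recur for each gene, and most of these genes were chosen by their genotype p. The 72 groups are thus not independent, and 6 of 72 cannot be compared with that rate. In 4 of the 6 the library was heterozygous iron 5. Its hexb level was 5.63 log2 CPM, with the next heterozygous iron library at 5.01. For man2b2 it stood at 5.06, with the next at 4.32, and for ctsa at 5.09, with the next at 4.52. The fourth was lamp1, at 6.36 with the next at 6.02. In the heterozygous saline group, heterozygous saline 5 stood at 1.05 log2 CPM for npc2 (ENSDARG00000096979), where the next library was at -0.75. Heterozygous saline 2 stood at 5.91 for lamp2, with the next at 5.81.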

How the results depend on the processing

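Of 129 counts of called lysosomal genes under alternatives, 101 were within 1.5 times the value given above. A count of 0 beside a main count of 0 was taken as within that limit. The iron and interaction comparisons gave only such counts, so the tally overstates how stable the other comparisons were. The other size factors and filters, limma voom, 1 surrogate variable and the term for fish number stayed within 1.5 times for all 3 genotype comparisons. So did DESeq2 over both treatments (22) and after iron (4). With DESeq2 the share of all genes called was 6.4% over both treatments and 0.717% after iron. In the main fit these shares were 4.31% and 0.137%. After saline, where 7 genes were called, the count was 12 with DESeq2, 22 without sex and tank terms, 4 with the microglia term, and 0 with males alone, with fish numbers up to 40 alone or above 40 alone. Leaving out 1 of 3 heterozygous libraries gave 7 to 12, and leaving out heterozygous saline 5 and iron 5 together 14. The share of all genes called after saline moved too. It was 1.25% in the main fit, 2.51% with DESeq2, 11.4% without sex and tank terms and 1.04% with the microglia term. After iron (3 called) the count was 5 without sex and tank terms, 0 on either side of fish number 40, 3 to 8 without single libraries and 9 without both. There the share of all genes was 0.137% in the main fit and 0.544% without sex and tank terms. Over both treatments (17 called) the count was 11 with the microglia term, 6 with males alone, 0 on either side of 40, and 19 to 24 without single libraries. Over both treatments each of the 3 omissions raised the count, to 22 without heterozygous saline 5, 24 without heterozygous iron 5 and 19 without heterozygous saline 10. The shares of all genes called rose too, to 5.74%, 7.21% and 4.62%. For sex (1 called) the count was 2 with DESeq2, 0 with the microglia term, up to 40, above 40 and without both libraries, and 0 to 2 without single libraries. The share of all genes called for sex was 2.44% in the main fit, 4.58% with DESeq2 and 1.51% with the microglia term. For fish number (4 called) the count was 2 with all genes with a count, 0 with males alone, and 3 to 7 without single libraries. The share of all genes called for fish number was 21.4% in the main fit. It was 12.8% with all genes with a count and 1.6% with males alone. Iron and interaction stayed at 0 in every alternative run. Fits of fewer libraries have less power by construction; the cause of other changes was not tested.

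None of the 17 called genes changed sign in any alternative. Sign changes came in 13 genes whose log2 fold change was at most 0.12 in size. With upper quartile factors, values were 0.0071 in gla, 0.0093 in lamp1b and 0.0023 in scarb2a. Among genes averaging 1 log2 CPM or more, values were 0.0096 in gla, 0.011 in lamp1b and 0.0038 in scarb2a. With limma voom, the value was 0.020 in scarb2a. Without sex and tank terms, values were 0.027 in gla, 0.014 in asah1 (ENSDARG00000037091) and 0.056 in scarb2a. With 1 surrogate variable, values were 0.010 in gla and 0.0055 in lamp1b. With the microglia term, values were -0.013 in glb1, -0.051 in acp5, 0.011 in lamp1b and -0.044 in mfsd8. With males alone, values were 0.076 in gla and 0.029 in lamp1b. With fish numbers up to 40, values were -0.00068 in gaa (ENSDARG00000090714), -0.12 in gaa (ENSDARG00000116493), 0.0021 in gla, -0.14 in galc (ENSDARG00000037064), 0.053 in lamp1b, -0.016 in slc17a5, -0.013 in ctns and -0.035 in mcoln1 (ENSDARG00000002285). With fish numbers above 40, values were -0.017 in glb1, 0.19 in scarb2a and -0.085 in mfsd8. Without heterozygous saline 5, values were -0.039 in acp5 and 0.0078 in lamp1b. Without heterozygous iron 5, values were 0.0078 in asah1 (ENSDARG00000037091), 0.0026 in lamp1b and 0.028 in scarb2a. Without heterozygous saline 10, the value was 0.0072 in lamp1b. Without both libraries, values were 0.015 in asah1 (ENSDARG00000037091), -0.10 in acp5, 0.0054 in lamp1b and 0.0095 in scarb2a. Over the fits that left out 1 library, acp5 ran from -0.039 to 0.059, asah1 (ENSDARG00000037091) ran from -0.023 to 0.0078, lamp1b ran from 0.0026 to 0.0078 and scarb2a ran from -0.021 to 0.028.

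No paired analysis was possible because the labels give each library its own fish number, and replicate numbers only name libraries in accession order.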
